A study of Mus musculus with 16 samples.

Results

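The expression of 9 genes of mast cells was described in fetal mouse lung: the proteases Cma1, Cpa3 and Tpsb2, the granule and mediator genes Hdc, Slc18a2, Srgn and Hpgds, the receptor gene Kit and the transcription factor gene Gata2. They were picked by symbol from 57180 genes in the count tables, and all 9 were among the 17276 genes abundant enough to be tested. Earlier results of the same data were known when the list was drawn up, in particular that Cma1, Cpa3 and Tpsb2 were higher with BMS493 in A/J lungs. The A/J response of the 9 genes is therefore given as a description without a test, and tests of these 9 genes are given only for the B6 response and the strain average. Genes outside the 9 are tested in A/J too, and those named after their values were seen are listed with the methods.

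The 16 libraries came from whole lungs at E14.5 (counted in embryonic days), 4 in each of 4 groups, and the design text names male mice. The strains were C57BL/6J (B6) and A/J, with no engineered allele in the labels. Dams received BMS493, a compound that lowers the basal activity of retinoic acid receptors and so of vitamin A signalling. The oral dose was 3.75 µg per g each day over E9.5 to E14.5, and control dams received corn oil. Litters are not given in the labels, so p-values measure the spread between these samples, some of which may be littermates. Between 15207539 and 24146224 fragments per library were assigned to genes. Within B6 with BMS493, replicate 3 lay farthest from its group, at a root mean square difference of 0.55 to 0.58 in log2 CPM (counts per 1e6 assigned counts), where the other 3 differed from each other by 0.43 to 0.52. B6 results are also given without it. Summed levels of 7 lung epithelium markers were 696 to 2052 CPM, so lung was recognisable in all 16 libraries. The highest sum was that of B6 BMS493 replicate 2, and the next was 1479 CPM in replicate 3 of that group.

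Mast cells arise from blood progenitors and settle in tissues, where they fill with granules. Stem cell factor, encoded by Kitl, acts through the receptor KIT to keep them alive, and the transcription factors GATA2 and MITF drive their gene programme. The granules hold histamine and proteases bound to the proteoglycan serglycin, and in airways their release is known for contracting smooth muscle. Cma1 encodes mouse mast cell protease 5, which belongs to the chymases by sequence but has elastase-like cleavage, carboxypeptidase A3 (Cpa3) trims the ends of peptides, and tryptase (Tpsb2, mouse mast cell protease 6) cleaves after basic residues.

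Promoters of 8 of the 9 genes were found in a RefSeq table of genome build GRCm38.p6, with Tpsb2 the gene without an entry. The 250 bases before the annotated start site are shown for Cma1, Cpa3 and Hdc, whose levels moved together across libraries, and for Slc18a2, a granule gene whose level did not move with theirs. All are written 5′ to 3′ on the strand of the gene, with the letters AGATAA or TGATAA, on either strand, in capitals. They lie at chr14:55944676-55944925 on the minus strand for Cma1, chr3:20242182-20242431 on the minus strand for Cpa3, chr2:126618679-126618928 on the minus strand for Hdc and chr19:59260628-59260877 on the plus strand for Slc18a2.
Cma1: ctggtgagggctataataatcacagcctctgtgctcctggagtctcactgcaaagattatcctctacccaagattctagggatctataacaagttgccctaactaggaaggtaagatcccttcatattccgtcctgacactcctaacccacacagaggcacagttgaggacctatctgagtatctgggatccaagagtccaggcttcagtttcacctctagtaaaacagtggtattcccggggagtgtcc
Cpa3: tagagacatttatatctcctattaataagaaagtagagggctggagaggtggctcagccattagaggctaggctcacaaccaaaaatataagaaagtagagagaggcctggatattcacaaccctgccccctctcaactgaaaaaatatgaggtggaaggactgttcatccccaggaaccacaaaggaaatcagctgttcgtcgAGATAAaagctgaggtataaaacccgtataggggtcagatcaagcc
Hdc: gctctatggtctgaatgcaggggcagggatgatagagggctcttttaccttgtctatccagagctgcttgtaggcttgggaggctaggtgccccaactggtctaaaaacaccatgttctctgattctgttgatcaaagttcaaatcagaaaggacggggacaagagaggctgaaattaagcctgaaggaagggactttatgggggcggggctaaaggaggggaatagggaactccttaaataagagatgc
Slc18a2: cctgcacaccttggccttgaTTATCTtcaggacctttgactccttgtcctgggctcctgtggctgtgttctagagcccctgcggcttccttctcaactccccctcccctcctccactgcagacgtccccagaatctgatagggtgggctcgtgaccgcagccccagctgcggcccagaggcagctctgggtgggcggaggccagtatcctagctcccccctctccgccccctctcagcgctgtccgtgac
The motif searches covered both strands of 300 bases, from 250 before to 50 after the start site, in 11 promoters of the 8 genes. The GATA motif, searched only as AGATAA or TGATAA, was found in 2 of the 8 genes. It lay 46 bases before the start of Cpa3 and, on the opposite strand, 230 bases before that of Slc18a2. Of all 32851 promoters in the table, 18.6% held it. The half-site of retinoic acid receptors, AGGTCA, was found in 0 of the 8 genes and in 16.3% of all promoters, and its spaced pair, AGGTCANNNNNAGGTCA, in 0 of the 8 genes and in 0.00913% of all promoters. The MITF motif TCATGTG was found in 1 gene, Hpgds, and in 3.77% of all promoters. These matches describe the letters in the windows and no more. Forms ending in G (AGATAG or TGATAG) were not searched, and Cma1, Hdc and Slc18a2 hold such letters in lower case.

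The label of the list was checked against genes that define mature mast cells. Fcer1a, the chain of the high-affinity IgE receptor that binds IgE, had 2 counts over all 16 libraries, both in B6 with BMS493. Ms4a2, the beta chain of that receptor, had 0 to 11 counts per library, and the chymase gene Mcpt4 of connective tissue mast cells had 0 to 31. Mcpt9 and Mrgprb1 were at 0 counts in every library. Fcer1g, the gamma chain, which other leukocytes also use, was at 2.67 to 7.81 CPM. The genes of the IgE-binding and beta chains were thus close to absent, while Cma1, Cpa3 and Tpsb2 stood between 0.516 and 9.63 CPM. Kit, Gata2 and Srgn are also active in other cells, such as blood progenitors, endothelium and leukocytes, and their levels in whole lung are not those of mast cells alone. In whole tissue, more cells of a type and more RNA per cell cannot be told apart.

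The 3 protease genes and Hdc were higher in all 4 A/J BMS493 lungs than in all 4 A/J controls. This was the case for 2.03% of all genes tested. Cma1 had 1.16, 0.822, 1.18 and 0.908 CPM in the A/J controls (replicates 1 to 4) and 2.32, 3.08, 6.19 and 5.14 CPM with BMS493. Its mean was 1.02 ± 0.180 CPM in controls and 4.18 ± 1.79 with BMS493 (SD, n = 4 each), and the log2 fold change in the edgeR fit was 2.03 (SE 0.35). The control lungs lay close together, and the treated ones spread widely, with replicates 3 and 4 highest.

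Cpa3 had 1.64, 1.99, 2.60 and 2.89 CPM in A/J controls and 4.50, 4.62, 9.63 and 7.96 CPM with BMS493, a log2 fold change of 1.55 (SE 0.27). Tpsb2 had 0.868, 0.866, 1.18 and 0.964 CPM in A/J controls and 1.90, 2.11, 3.07 and 3.93 CPM with BMS493, a log2 fold change of 1.49 (SE 0.33). For both proteases replicates 3 and 4 of the treated group were again above replicates 1 and 2. Hdc encodes histidine decarboxylase, the enzyme that makes histamine. Its levels in A/J were 1.30, 0.476, 0.820 and 2.16 CPM in controls and 2.83, 3.39, 8.0 and 2.42 CPM with BMS493, a log2 fold change of 1.84 (SE 0.42). Replicate 3 with BMS493 stood far above the other 3, and the lowest treated lung was only just above the highest control. Without that replicate the log2 fold change was 1.31 for Hdc, 1.77 for Cma1, 1.32 for Cpa3 and 1.44 for Tpsb2. These 4 genes were the members at or above 1 on the log2 scale, which 0.434% of all genes reached in A/J. The lowest of them was Tpsb2 at 1.49, and the next member below was Gata2 at 0.20.

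In B6 the same 4 genes overlapped between treatments. Cma1 had 0.928, 1.82, 2.52 and 2.29 CPM in B6 controls and 2.27, 4.06, 2.002 and 4.65 CPM with BMS493. Cpa3 had 2.78, 2.27, 3.61 and 3.61 CPM in controls and 2.98, 4.02, 2.47 and 5.40 CPM with BMS493. Replicates 2 and 4 of the treated group were the highest for both, while replicates 1 and 3 lay among the controls. Tpsb2 ranged from 0.516 to 1.53 CPM in B6 controls and from 0.757 to 1.86 with BMS493. Hdc ranged from 1.39 to 2.72 CPM in controls and from 1.82 to 3.59 with BMS493. For these genes too the highest treated lungs were replicates 2 and 4. Summed over the 4 genes, the level was 5.62, 7.35, 9.79 and 9.05 CPM in B6 controls, 7.83, 13.5, 7.34 and 14.99 in B6 with BMS493, 4.97, 4.16, 5.78 and 6.92 in the A/J control group and 11.5, 13.2, 26.9 and 19.4 for A/J treated lungs. The A/J controls were the lowest group and the A/J treated lungs the highest, while the B6 controls overlapped the former and the treated B6 lungs the latter.

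**Figure D1:**
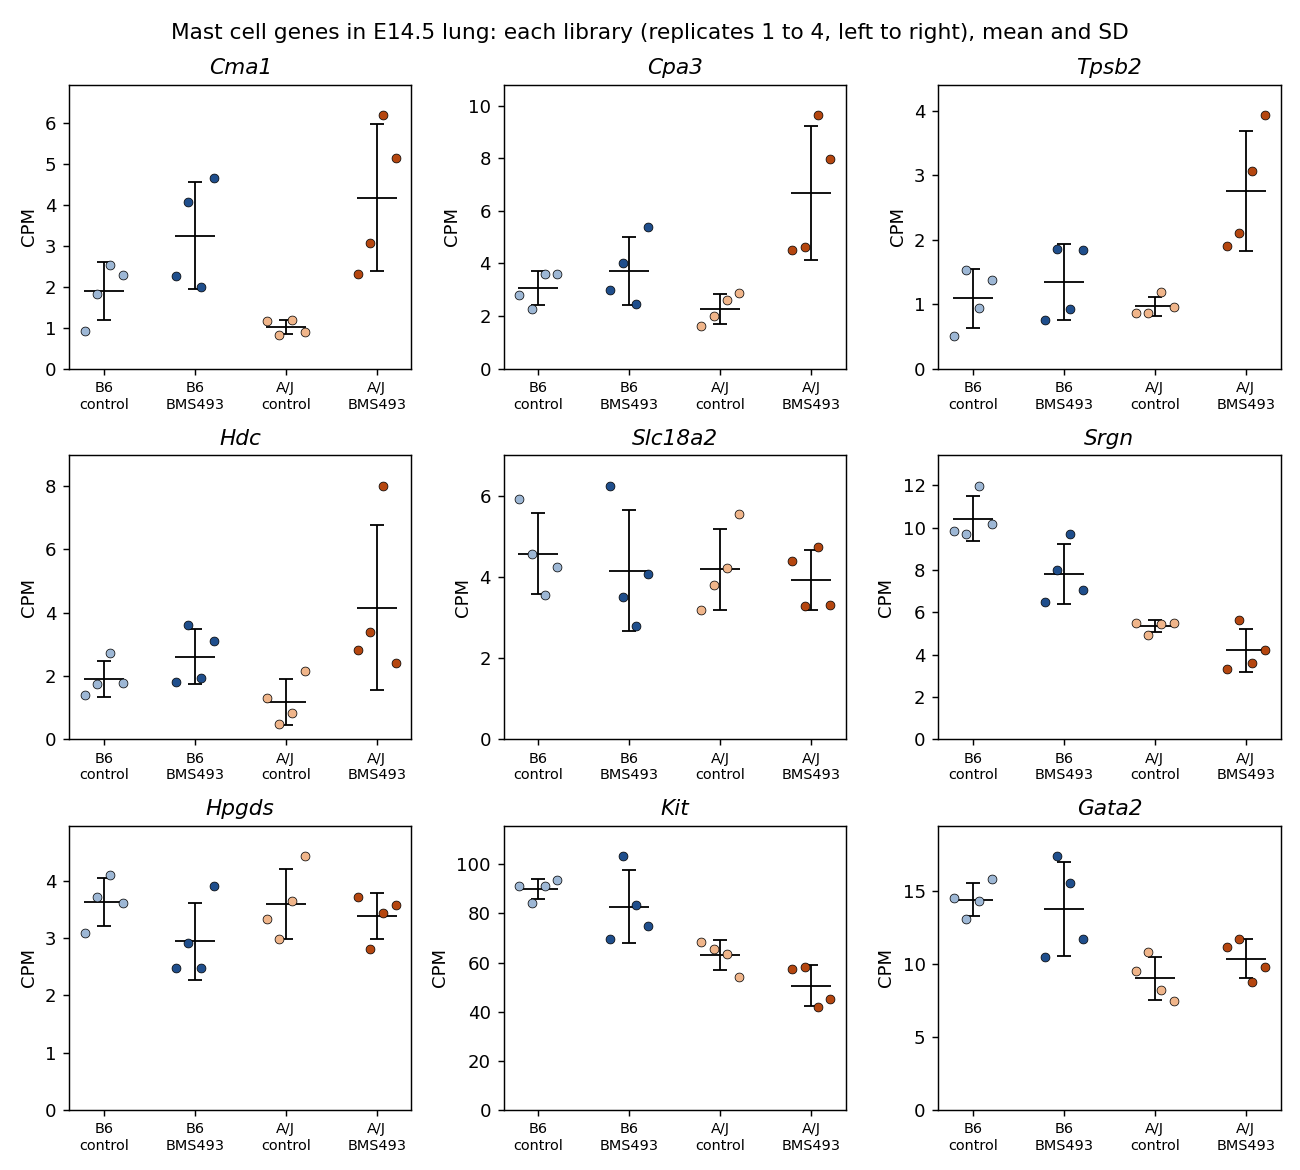
Level in CPM of each of the 9 genes (1 panel each) in every library of the 4 groups, with points for replicates 1 to 4 from left to right, a line for the mean and bars for the SD (n = 4). Cma1, Cpa3, Tpsb2 and Hdc show A/J BMS493 points above all A/J control points, while Srgn and Kit separate by strain.

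The remaining granule and mediator genes did not share the A/J response of the proteases. Slc18a2, the vesicle transporter that loads histamine and other amines, had 3.18, 3.81, 4.24 and 5.56 CPM in A/J controls and 4.41, 3.30, 4.74 and 3.32 CPM with BMS493, so the groups overlapped fully. Hpgds, the prostaglandin D2 synthase of haematopoietic cells, had 3.33, 2.99, 3.64 and 4.42 CPM in A/J controls and 3.71, 2.82, 3.44 and 3.58 CPM with BMS493. For both genes the log2 fold change was -0.08 in A/J, and every lung of either strain stayed between 2.47 and 6.26 CPM. Srgn, which encodes the serglycin core protein, had 9.85, 9.71, 11.97 and 10.2 CPM in B6 controls and 6.46, 7.99, 9.68 and 7.06 CPM with BMS493. All 4 treated B6 lungs were below all 4 controls, by a narrow margin, and 2.63% of all genes tested showed this order. In A/J, Srgn was 5.50, 4.93, 5.47 and 5.50 CPM in controls and 3.34, 5.63, 3.58 and 4.23 CPM with BMS493, where 1 treated lung was above every control.

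Kit had 68.3, 65.5, 63.6 and 54.2 CPM in A/J controls and 57.3, 57.98, 41.8 and 45.2 CPM with BMS493, a log2 fold change of -0.31 (SE 0.12). The groups overlapped, and replicates 3 and 4 of the treated group, which had the most protease RNA, had the least Kit. The same 2 lungs had the lowest sums of the treated group for 8 endothelial markers (903 and 933 against 980 and 1081 CPM in replicates 1 and 2) and 8 blood progenitor markers (116 and 105 against 122 and 138 CPM). In A/J controls these sums were 922 to 1105 and 124 to 138 CPM, and their part in the result was not tested. Gata2 had 9.55, 10.8, 8.20 and 7.49 CPM in A/J controls and 11.2, 11.7, 8.74 and 9.82 CPM with BMS493, a log2 fold change of 0.20 (SE 0.15). Here too the groups overlapped.

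The response in B6 was tested, since the difference known to have led to the list was that in A/J, although B6 results were known as well. None of the 9 genes was called at an adjusted p under 0.05 in B6, by edgeR (0 of 9) or by DESeq2 (0 of 9), where edgeR called 0.423% of all genes. At an unadjusted p under 0.05 edgeR found 2 of the 9. For Cma1 the mean was 1.89 ± 0.706 CPM in B6 controls and 3.25 ± 1.31 with BMS493 (SD, n = 4 each), and the log2 fold change was 0.79 (SE 0.33, edgeR unadjusted p = 0.0245, adjusted p = 0.463). For Srgn it was 10.4 ± 1.05 and 7.80 ± 1.40 CPM, and the log2 fold change was -0.42 (SE 0.15, edgeR unadjusted p = 0.0109, adjusted p = 0.341). The other 7 genes had log2 fold changes from -0.30 (Hpgds) to 0.47 (Hdc) and edgeR adjusted p-values from 0.677 to 0.935. Without B6 BMS493 replicate 3 the call count was again 0, with log2 fold changes of 0.95 for Cma1 and -0.54 for Srgn. Over the 16 alternative fits described below, they ranged from 0.57 to 0.97 for Cma1 and from -0.54 to -0.34 for Srgn.

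The estimated response in A/J exceeded that in B6 by 1.23 on the log2 scale for Cma1 (SE 0.48), 1.26 for Cpa3 (SE 0.38), 1.18 for Tpsb2 (SE 0.49) and 1.38 for Hdc (SE 0.59). These differences contain the A/J response and were not tested. The median log2 fold change of the 9 genes was 0.20 in A/J and -0.06 in B6, where the medians of all genes tested were -0.0019 and 0.0070.

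**Figure D2:**
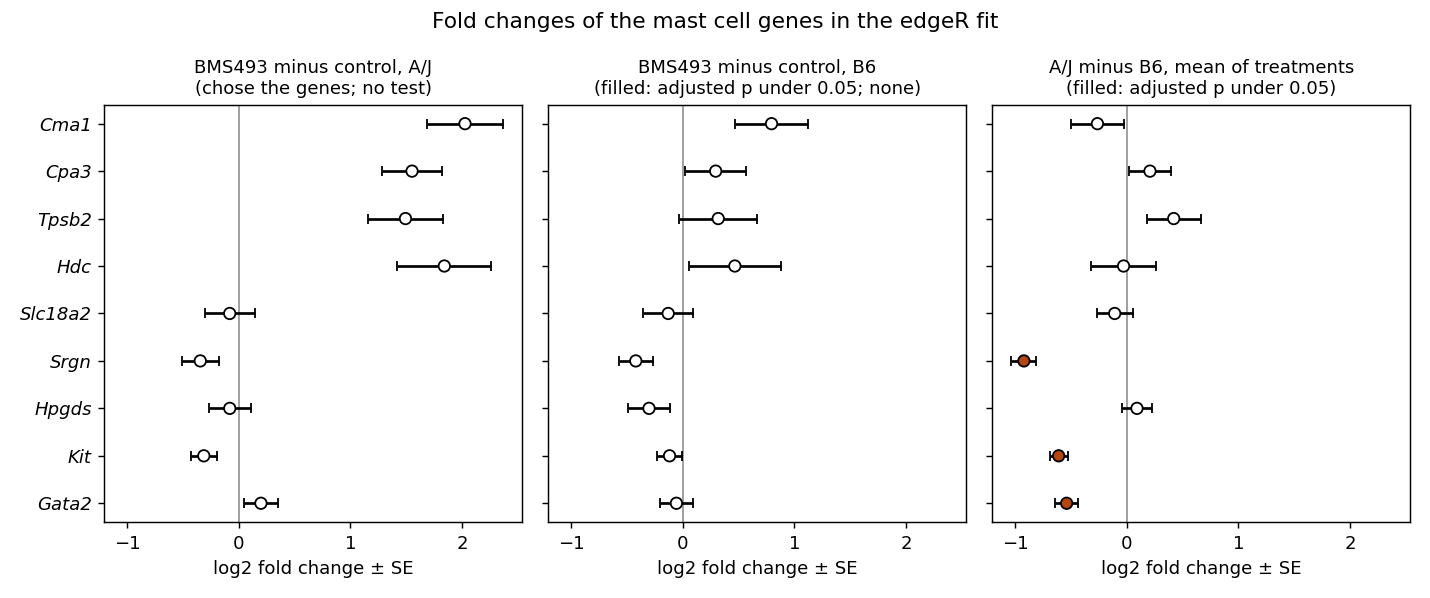
Log2 fold change of the 9 genes with its SE in the edgeR fit, for BMS493 against control in A/J (no test), the same in B6, and A/J against B6 averaged over treatments, with filled points for an adjusted p under 0.05. The top 4 genes lie between 1.49 and 2.03 in A/J and between 0.29 and 0.79 in B6, and Srgn, Kit and Gata2 are the filled points, all lower in A/J.

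Strain was compared as the mean of both treatments, a comparison that does not draw on the difference between A/J groups by which the list was chosen. Of the 9 genes 3 were called, all lower in A/J, where edgeR called 31.7% of all genes and 17.5% as lower. DESeq2 also called 3. Srgn averaged 9.11 CPM in B6 and 4.77 in A/J, a log2 difference of -0.92 (SE 0.11, edgeR adjusted p = 4.86e-07), and all 8 A/J lungs were below all 8 B6 lungs. Kit averaged 86.4 CPM in B6 and 56.8 in A/J, a log2 difference of -0.61 (SE 0.082, edgeR adjusted p = 8.96e-06). Every A/J lung again lay below every B6 lung, at 41.8 to 68.3 against 69.4 to 103.3 CPM, and 5.56% of all genes were separated in this direction. Gata2 averaged 14.1 CPM in B6 and 9.69 in A/J, a log2 difference of -0.54 (SE 0.10, edgeR adjusted p = 0.000228), with some overlap between the strains. The 3 proteases and Hdc were not called, with log2 differences of -0.26 for Cma1, 0.21 for Cpa3, 0.42 for Tpsb2 and -0.03 for Hdc (edgeR adjusted p = 0.431, 0.446, 0.200 and 0.952). Slc18a2 and Hpgds, at -0.11 and 0.09, were not called either (edgeR adjusted p = 0.643 and 0.653). Endothelial markers and pan-leukocyte markers, which mark other cells that can express Kit, Gata2 or Srgn, were also lower in A/J, with 8 of 8 and 5 of 6 genes called. Macrophage markers, from cells that also make Srgn, went both ways, with 4 called lower and 3 higher of 10. Their part in the result was not tested.

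Levels were compared between genes as CPM per kilobase of exon. In B6 controls the highest were Kit at 10.1 ± 0.465, Srgn at 4.75 ± 0.477, Gata2 at 2.67 ± 0.208, Cpa3 at 2.02 ± 0.434 and Cma1 at 1.73 ± 0.647, with the last 2 within their spread (SD, n = 4 each). In treated B6 lungs Cma1 was at 2.98 ± 1.20, Gata2 at 2.55 ± 0.596 and Cpa3 at 2.45 ± 0.852, all overlapping. In A/J controls the order was Kit at 7.06 ± 0.685, Srgn at 2.44 ± 0.126, Gata2 at 1.67 ± 0.274, Cpa3 at 1.503 ± 0.375, Cma1 at 0.934 ± 0.165, Slc18a2 at 0.803 ± 0.193, Tpsb2 at 0.609 ± 0.0938, Hpgds at 0.560 ± 0.0956 and Hdc at 0.186 ± 0.114 (SD, n = 4 each). Kit stood well above all others, while Gata2 and Cpa3, Cma1 and Slc18a2, and Tpsb2 and Hpgds were neighbours within their spread. In A/J with BMS493 Kit was still first at 5.68 ± 0.930, but Cpa3 followed at 4.40 ± 1.67 and Cma1 at 3.84 ± 1.64, within their spread of each other and of Kit. Gata2 at 1.92 ± 0.248, Srgn at 1.91 ± 0.468 and Tpsb2 at 1.73 ± 0.586 came next and overlapped, followed by Slc18a2 at 0.755 ± 0.142, Hdc at 0.651 ± 0.406 and Hpgds at 0.527 ± 0.0616.

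The 9 genes differed in how far they varied together from lung to lung. The set of Cma1, Cpa3, Tpsb2 and Hdc, which shared the A/J response, was recognised after its values were seen. With log2 CPM centred within each of the 4 groups, so that group means play no part, Pearson correlations over the 16 libraries were 0.30 to 0.82 for the 6 pairs of this set, with a median of 0.55. Cma1 and Tpsb2 had the highest (0.82), followed by Cma1 and Cpa3 (0.74), and Tpsb2 and Hdc the lowest (0.30). Hpgds, which showed no separation between treatments, had correlations of 0.55 with Cma1, 0.64 with Cpa3, 0.56 with Tpsb2 and 0.55 with Hdc. These lie within the range of the 6 pairs, so this variation did not set Hpgds apart from the 4 genes. Over all 20 pairs between the 4 genes and the other 5 the range was -0.45 to 0.64 with a median of -0.06. Kit and Gata2 were the closest pair of all at 0.89, and neither had a positive correlation with any of the 4. The points share libraries, depth and tissue make-up, and these correlations are descriptions with no test.

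**Figure D3:**
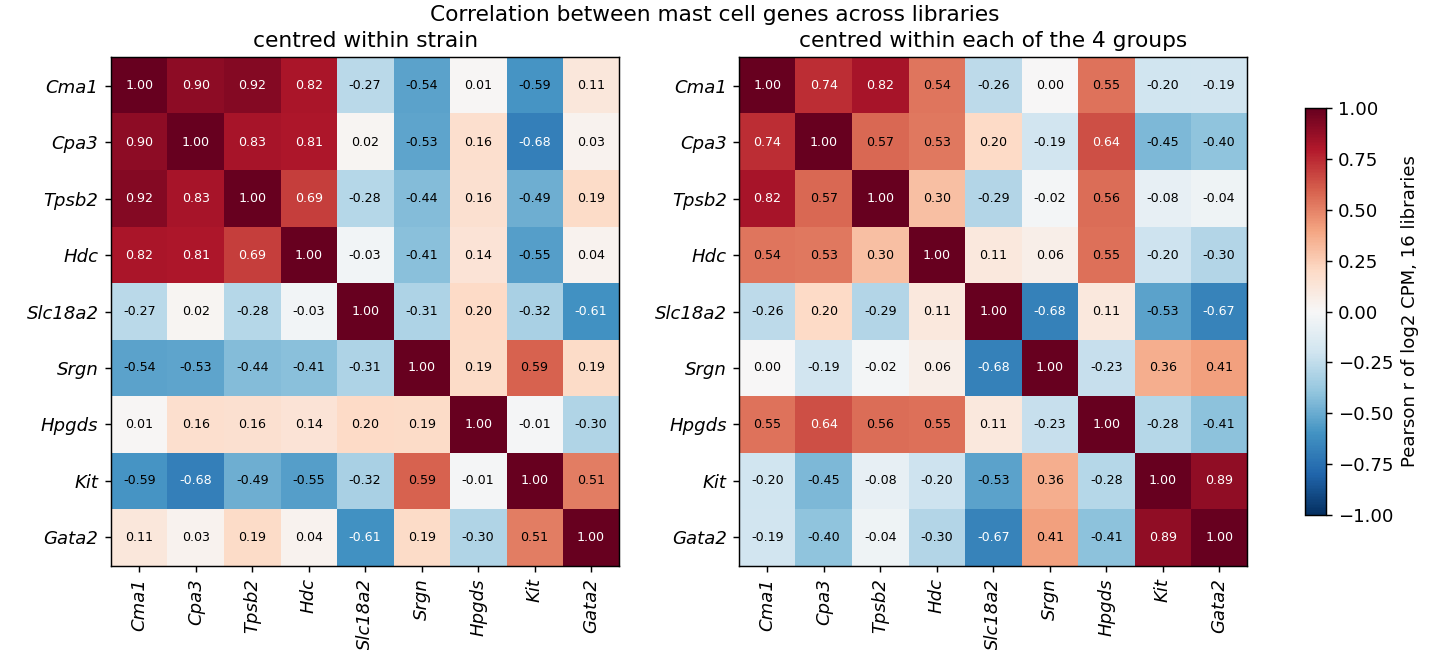
Pearson correlation (colour and number, from -1 to 1) between the log2 CPM of each pair of the 9 genes over 16 libraries, centred within strain on the left and within each of the 4 groups on the right. The block of Cma1, Cpa3, Tpsb2 and Hdc is positive in both, at 0.69 to 0.92 and 0.30 to 0.82, and Kit with Gata2 reaches 0.89 on the right.

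Across the 14376 genes with a mean of at least 1 CPM, those whose log2 CPM, centred within strain, was most like the mean of the 3 proteases over the 16 libraries were Slc25a42 (r = 0.84), Dusp23 (0.82), Gm15470 (0.81), Tnfaip8l3 (0.81), Foxf2 (0.80), Fibin (0.79), Meox2 (0.78) and Prrx1 (0.78). Hdc reached 0.81. Centring within strain keeps the treatment difference. When the groups were centred instead, the 8 most like genes were others, led by Slc38a3 at 0.86, and 0 of the first 8 were among them. In that setting Hpgds had 0.64 (rank 71) and Hdc 0.50 (rank 361).

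A longer list of 44 other mast cell genes was examined, of which 28 were abundant enough to be tested. None was called for BMS493 in A/J by edgeR (0 of 28, with 1 at an unadjusted p under 0.05) or by DESeq2 (0 of 28), where edgeR called 0.486% of all genes. That 1 gene was Slc45a3, a sugar transporter family member, with 1.47 ± 0.443 CPM in A/J controls and 2.53 ± 0.520 with BMS493 (SD, n = 4 each) and a log2 fold change of 0.80 (SE 0.25, edgeR adjusted p = 0.282). In B6 likewise 0 of 28 were called by edgeR or DESeq2, with 1 at an unadjusted p under 0.05 in edgeR, Runx1 at 0.29. The median log2 fold change of the list was -0.0064 in A/J and 0.07 in B6. Its tested genes encode receptors, transcription factors, granule and lipid mediator enzymes and signalling proteins, and none is a protease.

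All 8 other protease genes of the list were too low to be tested, and raw counts are given for 4 of them. The mucosal mast cell protease gene Mcpt2 had 1, 4, 6 and 0 counts in A/J controls and 0, 0, 11 and 4 with BMS493, and Mcpt1 had 0 to 3 in every library. Mcpt2 thus did not separate the treatments. Mcpt4 had 1, 5, 0 and 7 counts in A/J controls and 3, 9, 15 and 7 with BMS493, and 1, 4, 6 and 1 in B6 controls and 5, 31, 0 and 7 with BMS493. In the treated B6 group 31 of 43 counts came from replicate 2. Tpsab1, the tryptase of mouse mast cell protease 7, which C57BL/6 mice are known to lack through a splice mutation, had 1, 5, 3 and 1 counts in B6 controls and 0 in all 4 treated B6 lungs. In A/J it had 4, 1, 4 and 8 counts in controls and 6, 6, 9 and 12 with BMS493. Against a floor of 3 counts over treated B6 lungs, the 33 Tpsab1 counts of treated A/J lungs were 9.85-fold higher per assigned count. The A/J counts were taken as exact, so this is not a lower limit. In controls the strains had 17 and 10 counts in all, and the difference between these strain comparisons was not tested. Ms4a2 had 2, 2, 4 and 0 counts in A/J controls and 6, 0, 11 and 5 with BMS493. These low counts overlapped between treatments in both strains for Mcpt4 and Ms4a2. For Tpsab1 the treated A/J lungs, at 6 to 12, overlapped the controls, at 1 to 8. In B6 the treated lungs were at 0 and the controls at 1 to 5, so their order rests on single counts. Shares of all genes in such an order were taken over tested genes only, so none is given for Tpsab1. These treatment differences were not tested, and the floor covers counting error only.

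**Figure D4:**
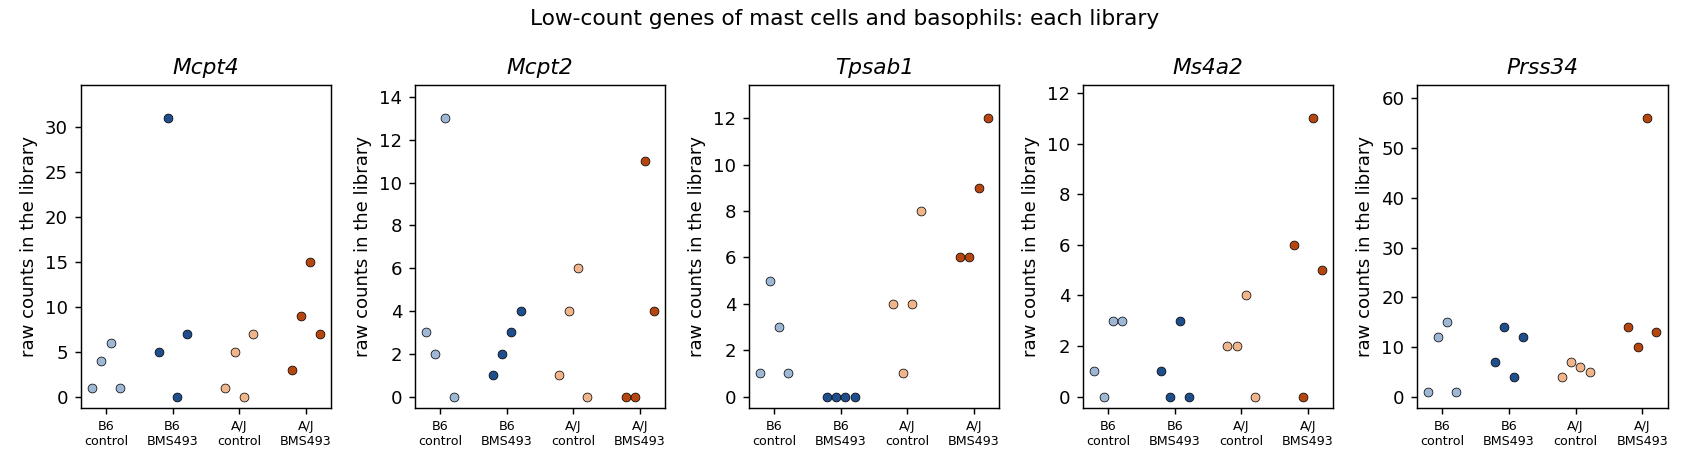
Raw counts per library of 4 mast cell genes too low to be tested (Mcpt4, Mcpt2, Tpsab1, Ms4a2) and of the basophil protease gene Prss34, by group, with replicates 1 to 4 from left to right. Tpsab1 is at 0 in all 4 treated B6 lungs, and single lungs stand out at 31 (Mcpt4, B6 BMS493 replicate 2) and 56 (Prss34, A/J BMS493 replicate 3).

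Between strains, 14 of the 28 genes were called, all lower in A/J, by edgeR, and 14 by DESeq2, where edgeR called 31.7% of all genes and 17.5% as lower. The median log2 difference of the 28 was -0.22 against 0.0051 over all genes tested. Among receptors these included Il3ra at -1.14 and Csf2rb at -0.69, parts of the receptor for interleukin 3. Transcription factors lower in A/J were Gata1 at -1.02, Lyl1 at -0.50, Runx1 at -0.27, Tal1 at -0.20 and Stat5b at -0.15, and signalling kinases included Lyn at -0.50 and Syk at -0.39. Also lower were the amine oxidase gene Maob at -0.93, the granule traffic gene Rab27b at -0.89, the cyclooxygenase gene Ptgs1 at -0.54 and the fusion protein gene Vamp8 at -0.21. Many of them are active in other blood cells. Markers of other cells moved in both directions between strains, with 6 of 8 tested megakaryocyte and platelet genes called lower (median log2 difference -1.41), 3 of 6 of blood progenitors, 8 of 8 of endothelium and 5 of 6 of leukocytes in general. Lung epithelium shifted as well, with 5 of 7 markers called lower and 1 higher (median log2 difference -0.29). Of 10 macrophage markers 4 were called lower and 3 higher, and all 6 tested eosinophil and neutrophil markers had log2 differences above 0 (median 1.21), with 0 called by edgeR or DESeq2 and 2 at an unadjusted p under 0.05 in edgeR. Their part in the result was not tested. Lyl1, Il3ra, Ptgs1 and Runx1 overlap genes on the opposite strand and lose counts to them (stranded sums of 198%, 125%, 121% and 110% of the column used), and Csf2rb shares sequence with its copy Csf2rb2, so these values are uncertain. The calls of Runx1, Vamp8 and Tal1, all with small differences, rested on single libraries. Runx1 was not called without A/J BMS493 replicate 3 (-0.25), A/J control replicate 4 (-0.23), B6 BMS493 replicate 2 (-0.20) or B6 control replicate 3 (-0.24). Vamp8 was not called without A/J BMS493 replicate 2 (-0.19) or 3 (-0.20), A/J control replicate 2 (-0.18), or replicate 2 of B6 BMS493 (-0.17) or B6 control (-0.17). Tal1 was not called without A/J BMS493 replicate 3 (-0.17) or 4 (-0.18), A/J control replicate 3 (-0.19) or 4 (-0.18), B6 BMS493 replicate 3 (-0.15), or B6 control replicate 2 or 3 (-0.19 each).

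Markers of other blood cells were set beside the protease values. Basophils share proteases with mast cells, and their 6 markers summed to 0.511 to 0.729 CPM in A/J controls and 0.836 to 2.74 CPM with BMS493, the highest value being that of replicate 3. In that lung 2.60 CPM of the sum came from Prss34, a basophil protease, which had 4, 7, 6 and 5 counts in A/J controls and 14, 10, 56 and 13 with BMS493 (log2 fold change 2.02, edgeR unadjusted p = 0.00337, adjusted p = 0.256). It was the 1 basophil gene of 6 abundant enough to be tested, and Il4 and Fcer1a were at 0 in A/J with BMS493. The 11 eosinophil and neutrophil markers summed to 4.07 to 14.7 CPM in A/J controls and 2.24 to 16.7 with BMS493, where replicate 3 was again the highest and no other treated lung exceeded 3.83. A/J BMS493 replicate 3, the lung with the most Cma1, Cpa3 and Hdc, thus also had the highest sums of basophil and granulocyte markers. The basophil sum there was nearly all Prss34: Mcpt8, a basophil protease, had 4, 4, 6 and 0 counts in A/J controls and 3, 6, 1 and 3 with BMS493, and the surface receptor gene Cd200r3 had 4, 2, 3 and 3 counts and 4, 1, 2 and 10. Neither was highest in replicate 3. Without that lung the basophil sums of the treated group were 0.836 to 1.31 CPM, still above all controls, with 10 to 14 Prss34 counts against 4 to 7. Their part in the result was not tested. The 6 pan-leukocyte markers summed to 28.1 to 37.3 CPM in A/J controls and 34.1 to 38.5 with BMS493, and 10 macrophage markers to 162 to 174 and 155 to 169 CPM. The 10 markers of neighbouring heart, liver, thymus, skeletal muscle and basal epithelium summed to 5.73 to 20.4 CPM in A/J controls and 12.3 to 26.0 with BMS493, with replicate 1 of each group highest. Of 51 tested markers of basophils, granulocytes, megakaryocytes, progenitors, macrophages, lymphoid cells, endothelium, melanocytes and leukocytes in general, 0 were called for BMS493 in either strain by edgeR or DESeq2. With 0.423% of all genes called in B6 and 0.486% in A/J, a count of 0 is near the background. At an unadjusted p under 0.05 edgeR found 4 of them in A/J and 6 in B6. The share of all genes at an unadjusted p under 0.05 is not given, here or for the lists above, so such counts have no background beside them.

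The libraries carry numbers from 1 to 16, of which the first 8 hold replicates 1 and 2 of every group and the rest replicates 3 and 4. The A/J values are given by set as a description, since all treated lungs lay above all controls for these 4 genes. In replicates 1 and 2 Cma1 averaged 0.990 CPM in controls and 2.70 with BMS493, and in replicates 3 and 4 it averaged 1.05 and 5.66. For Cpa3 the averages were 1.82 and 4.56 CPM in the first set and 2.74 and 8.79 in the second. Tpsb2 went from 0.867 to 2.01 and from 1.07 to 3.50, and Hdc from 0.889 to 3.11 and from 1.49 to 5.21. The labels do not say what the numbering stands for.

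Of 15 genes encoding signals that attract mast cells or keep them alive, 10 were tested. Il33, a cytokine that activates mast cells, was the 1 gene called, and it fell in both strains, where edgeR called 0.423% of all genes in B6 and 0.486% in A/J. It fell from 4.31 ± 0.422 to 1.26 ± 0.433 CPM in B6 (log2 fold change -1.78, edgeR adjusted p = 0.00376) and from 3.61 ± 0.469 to 0.824 ± 0.471 CPM in A/J (-2.13, edgeR adjusted p = 0.000299; SD, n = 4 each). Kitl, the ligand of KIT, had 109.3, 112.4, 101.4 and 116.9 CPM in A/J controls and 126.0, 150.5, 122.6 and 127.7 CPM with BMS493, so every treated lung was above every control, as for 2.03% of all genes. Its log2 fold change was 0.26 (SE 0.065), not called by edgeR (adjusted p = 0.0837) and called by DESeq2 (adjusted p = 0.0264). In B6 it averaged 137.6 ± 3.96 CPM in controls and 150.5 ± 7.99 with BMS493 (SD, n = 4 each; log2 fold change 0.13, edgeR adjusted p = 0.559). Cxcl12, a chemokine of progenitors, had a log2 fold change of -0.38 in B6 (edgeR adjusted p = 0.102, DESeq2 adjusted p = 0.0304) and -0.01 in A/J. Il3 and Il9, growth factors of mast cells, were at 0 counts in every library.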

How the data were processed

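RNA from 16 fetal mouse lungs was sequenced after poly(A) selection, per the labels' protocols. The authors deposited raw counts per gene for each library, as fragments regardless of strand and on each strand. The submitters' processing notes name FastQC, cutadapt, STAR and build GRCm39 without versions, and the annotation is not given in the sources used here. The strand columns were near equal (51.0% to 52.0% in the first), so the counts without strand were used. Lines that are not genes held 23.1% to 28.3% of fragments and were left out. Symbols and exon lengths came from GENCODE M21, which matched 51933 of 57180 identifiers.

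Genes were filtered with filterByExpr and scaled with TMM in edgeR 4.0.16 (R 4.3.3). The 16 libraries entered 1 robust quasi-likelihood model, with a coefficient for each group (12 residual degrees of freedom). Two-sided p-values were adjusted by Benjamini-Hochberg over 17276 genes, and calls required an adjusted p under 0.05. CPM used the TMM scaling, and logged values a prior count of 2. DESeq2 1.42.0 was an alternative. Tables were assembled in Python 3.11.15.

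The 9 genes and all other lists were chosen with earlier results of these data known. Genes named were the 9, the called genes of the other lists (1 of them is not reported here), 4 mast cell genes (Tpsab1, Mcpt4, Fcer1a, Ms4a2), markers at 0 and the 8 genes most like the proteases. Slc45a3, Prss34, Kitl, Cxcl12, Mcpt1, Mcpt2, Mcpt8, Cd200r3, Fcer1g, Slc38a3 and Dct were added after their values were seen. Of 50-base windows of its transcripts, Cma1 shared 5.38% with the pseudogene Gm48934, and Cpa3 and Tpsb2 shared 0. Molecular identifiers are not mentioned, so counts are not independent molecules and floors cover counting error only.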

Additional observations from a re-analysis of the deposited data

Results flagged for a closer look

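Among 48 groups of 4 libraries examined for a single value far from the rest, over the 9 genes and Tpsab1, Mcpt4, Ms4a2 and Fcer1a, 1 was found, where chance gives about 1 in 20. Srgn in A/J control replicate 2 was 4.93 CPM, and the other 3 controls lay between 5.47 and 5.50 CPM, so that its gap was 0.935 of the range of the group.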

How the results depend on the processing

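The alternatives were RLE scaling, DESeq2, no filter, a mean of at least 1 CPM, a stranded column, the 8 libraries compared alone, a replicate block, a term for the library set and each library left out. The counts of called genes among the 9 did not move under any of them, at 0 in B6 and 3 between strains, and 4 stayed at or above 1 on the log2 scale in A/J. Among the other mast cell genes they were 0 for both treatment responses and 10 to 15 between strains. The A/J log2 fold change ranged from 1.77 to 2.23 for Cma1, 1.32 to 1.70 for Cpa3, 1.27 to 1.64 for Tpsb2 and 1.31 to 2.27 for Hdc, and that of Tpsb2 in B6 from -0.02 to 0.55. Whether replicate numbers pair the samples is not known, since litters are not given. Same-numbered libraries had correlations of -0.067 to 0.090 in their deviations from the group means. Of 8 controls 3 correlated best with their own number, and all 3 were A/J lungs. With the replicate block the counts were again 0 and 3, and the A/J values were 1.95 for Cma1 and 1.77 for Hdc. In the stranded column Csf2rb (-0.46), Stat5b (-0.14), Tal1 (-0.14) and Vamp8 (-0.19) were not called between strains, and without the filter Tal1 (-0.20) was not. Tpsb2 and the untested proteases rest on few counts per library, which limits their precision.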

Other observations

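Dct, a melanocyte gene, had 3, 2, 1 and 1 counts in B6 controls and 30, 21, 10 and 52 in B6 with BMS493, a log2 fold change of 4.00 that was not called (edgeR adjusted p = 0.120). In A/J it had 1, 0, 1 and 0 counts in controls and 0, 0, 34 and 6 with BMS493 (log2 fold change 3.98, edgeR adjusted p = 0.450). Melanocytes also depend on KIT and MITF, and the gene was named after its values were seen. Some mast cell genes that overlap a gene on the opposite strand lost counts in the column without strand: the sum of the stranded columns was 198% of it for Lyl1 and 827% for Alox5ap. For other overlapping genes, such as Hpgds and Mitf, it was 100%, and over the 9 genes it was 100% to 102%.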
